A study of Gallus gallus with 6 samples.

Results

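The genes described here encode the ligands of the Wnt pathway, their Frizzled receptors and LRP coreceptors, and the proteins that carry the signal to the nucleus. They were picked by gene symbol, as a pathway chosen with earlier results of these arrays known, and 41 of the 13051 genes measured matched, namely 18 WNT ligands, 12 receptors or coreceptors, 5 cytoplasmic components, 2 feedback inhibitors and 4 nuclear factors. The array annotation has 86 probe sets for them, and each gene is read by its brightest probe set, the one whose log2 values averaged highest over the 6 arrays. SP5, TCF7, WNT9B and GSK3B, which the choice of symbols also covers, were not analysed here.

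The 6 samples were 3 of sorted Hb-eGFP+ cells and 3 of sorted eGFP-/RFP+ cells, called RFP+ control. All cells came from chick embryos electroporated at stage HH3 with both Hb-eGFP, in which a hemangioblast enhancer from the chick Cerberus gene drives eGFP through a human beta-globin minimal promoter, and pCAGGS-RFP, which is expressed ubiquitously. The embryos were harvested at HH5-6 in 3 groups of 4, dissociated and sorted by fluorescence, with both populations collected at once. The RFP+ control cells are therefore a mixture of electroporated cells that lacked eGFP fluorescence, and the labels do not say which samples came from the same pool of embryos. The labels give the enhancer fragment that the study names PCR8 for all samples, whereas the study's figure legend names PCR2. Which of these was used is not settled. The values are linear signal intensities from Affymetrix Chicken Genome Arrays, and a gene was called higher or lower where the Benjamini-Hochberg adjusted p from limma, a linear model fitted to all 13051 genes at once, was under 0.05.

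Wnt proteins are secreted lipid-modified ligands that bind a Frizzled receptor, together with LRP5 or LRP6 in the beta-catenin branch of the pathway. Binding recruits Dishevelled and inactivates a complex of AXIN, APC and kinases that otherwise marks beta-catenin for destruction, so that beta-catenin enters the nucleus and acts with LEF1 and the TCF factors. In the gastrula, posterior Wnt signals maintain the primitive streak and pattern the mesoderm, while the anterior neural plate develops under low Wnt signalling.

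The GFP probe set ranged from 16931 to 17346 in Hb-eGFP+ cells and from 836 to 992 in RFP+ control cells. Of 8 markers of blood and endothelial precursors, all were higher in Hb-eGFP+ cells, beside 9.19% of all genes. Their summed intensity, which follows the brightest probe sets, was 26165 to 27810 in Hb-eGFP+ cells and 9698 to 10308 in RFP+ control cells. Apart from KDR, these markers are among the genes that the study selected on the same arrays, so their direction is a description and no check of the sort. Array medians lay between 87.7 and 91.1. The 56 reporter probe sets other than GFP had a median of 31.9 to 37.8 and a 90th percentile of 80.2 to 100.3, and the highest of these, 100.3, is taken here as the upper end of the reporter range on all arrays. Of the 41 Wnt genes, 9 had means within that range in both populations and 6 in Hb-eGFP+ cells alone, and the sizes of their folds are not exact. None of the 41 was removed by a filter, and the number of arrays limits the precision of every value.

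Wnt pathway transcripts were more often lower than higher in Hb-eGFP+ cells. Of the 41 genes, 15 were lower, 1 was higher and 25 did not pass the test, so that 16 were called in either direction, beside 19.9% of all genes. The lower genes make 36.6% of the members, beside 10.7% of all genes tested, and the higher gene 2.44%, beside 9.19% of all genes. The median log2 fold change of the members was -0.25, whereas that of all genes was 0.01. Among the 31 members brighter than the median of all probe sets (89.3), 13 were lower and 1 was higher. The share of 41.9% lower stands beside 12.7% of the 9513 genes of that brightness. Brightness is the mean log2 over all 6 arrays, so a gene can pass through its RFP+ control arrays alone. FZD5 and FZD8, with Hb-eGFP+ means of 77.5 and 55.5, did so and are counted as lower. This share is therefore a description and no separate support. The arrays of the 2 populations did not overlap for 22 members, or 53.7%, against 39.4% of all genes. In bulk samples of this kind, fewer cells that express a gene and less RNA per cell cannot be told apart. Without any 1 of the 6 arrays the count of lower members ranged from 10, without Hb-eGFP+ replicate 3, to 15, and that of higher members was 1 each time. Fewer genes were called in these fits, with 7.06% (without Hb-eGFP+ replicate 3) to 9.91% of all genes lower and 5.69% to 8.21% higher. The median log2 fold change of the members was -0.11 without RFP+ control replicate 1.

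**Figure D1:**
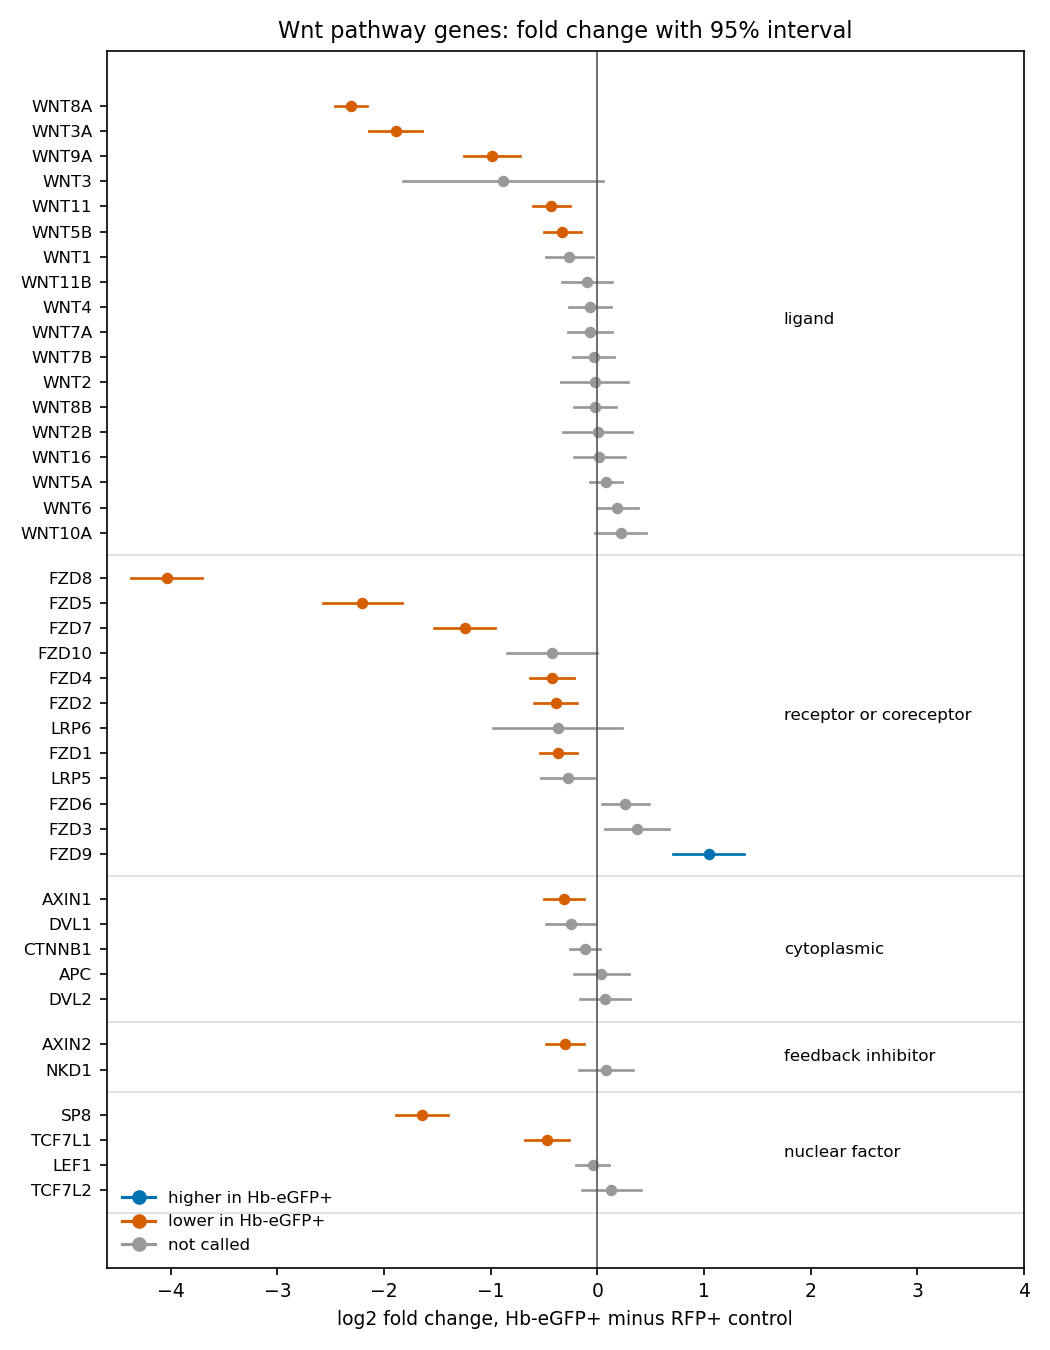
Log2 fold change (Hb-eGFP+ minus RFP+ control, x axis) of the 41 Wnt pathway genes, ordered within each role, with the 95% interval from limma as a line. The 15 genes that were lower in Hb-eGFP+ cells reach down to -4.04 for FZD8, and FZD9 at 1.04 is the gene that was higher.

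The decreases among the ligands were led by WNT8A and WNT3A. Of the 18 ligands, 5 were lower in Hb-eGFP+ cells (27.8%, beside 10.7% of all genes), none was higher (9.19% of all genes were) and 13 were not called. WNT8A, a ligand of the primitive streak and of mesoderm and neural patterning, had intensities of 142, 149 and 154 in Hb-eGFP+ cells and 723, 728 and 756 in RFP+ control cells. The values within each population lay close together and the populations were far apart, which gave a log2 fold change of -2.31 (standard error, SE, 0.07, with a limma adjusted p = 1.5e-06) and a control signal 4.96 times as high. WNT3A, which is required for paraxial mesoderm in the mouse, had 195, 206 and 224 in Hb-eGFP+ cells and 855, 671 and 798 in RFP+ control cells. Its log2 fold change was -1.89 (SE 0.11, limma adjusted p = 2.2e-05), and its second probe set was lower as well, at 106 ± 5.87 in Hb-eGFP+ cells and 226 ± 21.8 in RFP+ control cells (SD, n = 3 each), or -1.09 in log2.

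WNT9A, a ligand known from joint formation, was also lower, although at a dim signal. Its intensities were 29.6, 28.4 and 27.7 in Hb-eGFP+ cells and 54.0, 67.1 and 50.1 in RFP+ control cells, a log2 fold change of -0.99 (SE 0.11, limma adjusted p = 0.00078). All 3 Hb-eGFP+ values were below the reporter median, and all 3 RFP+ control values were within the reporter range. The size of this fold is thus not exact (-0.44 with an offset of 50). In the RefSeq gene table of the assembly GRCg7b, WNT9A and WNT3A are neighbours with 1 gene between them, which is not protein-coding, and both were lower. A second pair of neighbouring ligand genes, WNT6 and WNT10A, also separated by 1 gene that is not protein-coding, had log2 fold changes of 0.19 and 0.22 and was not called.

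Smaller decreases were measured for WNT11 and WNT5B, ligands that act largely outside the beta-catenin branch, in cell movement and polarity. WNT11 had 251, 239 and 256 in Hb-eGFP+ cells and 323, 322 and 361 in RFP+ control cells (log2 fold change -0.43, SE 0.07, limma adjusted p = 0.0063). Its 2 other probe sets varied more between arrays and were not called, with log2 fold changes of 0.10 and -0.62. In Hb-eGFP+ cells the WNT11 probe set read here had a mean of 249, below the 289 of the one at 0.10. It was thus brightest only through the RFP+ control arrays. WNT5B had 1814, 1578 and 1689 in Hb-eGFP+ cells and 2085, 2111 and 2173 in RFP+ control cells (-0.33, SE 0.07, limma adjusted p = 0.020). WNT5B no longer passed when Hb-eGFP+ replicate 2 or 3 or any RFP+ control array was left out, where its adjusted p was 0.050 to 0.072. Its probe set also did not pass in the fit over all probe sets (limma adjusted p = 0.053).

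WNT5A, the paralog of WNT5B, had 4452, 4229 and 4445 in Hb-eGFP+ cells and 4128, 4051 and 4221 in RFP+ control cells. The arrays did not overlap, yet the difference was small, with a log2 fold change of 0.08, a 95% interval of -0.07 to 0.23 and a limma adjusted p = 0.41. None of its 4 probe sets was called, and their log2 fold changes lay between -0.01 and 0.08. The interval of WNT5A excludes a change as large as that of WNT8A or WNT3A.

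WNT3, which in the mouse is needed for the primitive streak to form, was the member with the widest spread. It had 66.9, 94.9 and 63.3 in Hb-eGFP+ cells and 139, 249 and 72.8 in RFP+ control cells. The third control array overlapped the Hb-eGFP+ range, and the log2 fold change of -0.88 (95% interval -1.82 to 0.06) did not pass the test (limma adjusted p = 0.17). Without RFP+ control replicate 3 it was -1.33 with an adjusted p = 0.024, and without RFP+ control replicate 2 it was -0.45 with an adjusted p = 0.35.

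The other 11 ligands, WNT1, WNT2, WNT2B, WNT4, WNT6, WNT7A, WNT7B, WNT8B, WNT10A, WNT11B and WNT16, had log2 fold changes between -0.26 for WNT1 and 0.22 for WNT10A. Of these, WNT2, WNT2B, WNT7B, WNT8B, WNT10A and WNT11B lay in the range of the reporter probe sets in both populations, where a small difference may go undetected. WNT8B, the paralog of WNT8A that is known from the forebrain, had 41.0, 35.5 and 39.1 in Hb-eGFP+ cells and 36.8, 38.6 and 41.9 in RFP+ control cells. The WNT1 arrays did not overlap, from 102 to 117 in Hb-eGFP+ cells and from 118 to 142 in RFP+ control cells, but the adjusted p was 0.093 from limma.

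**Figure D2:**
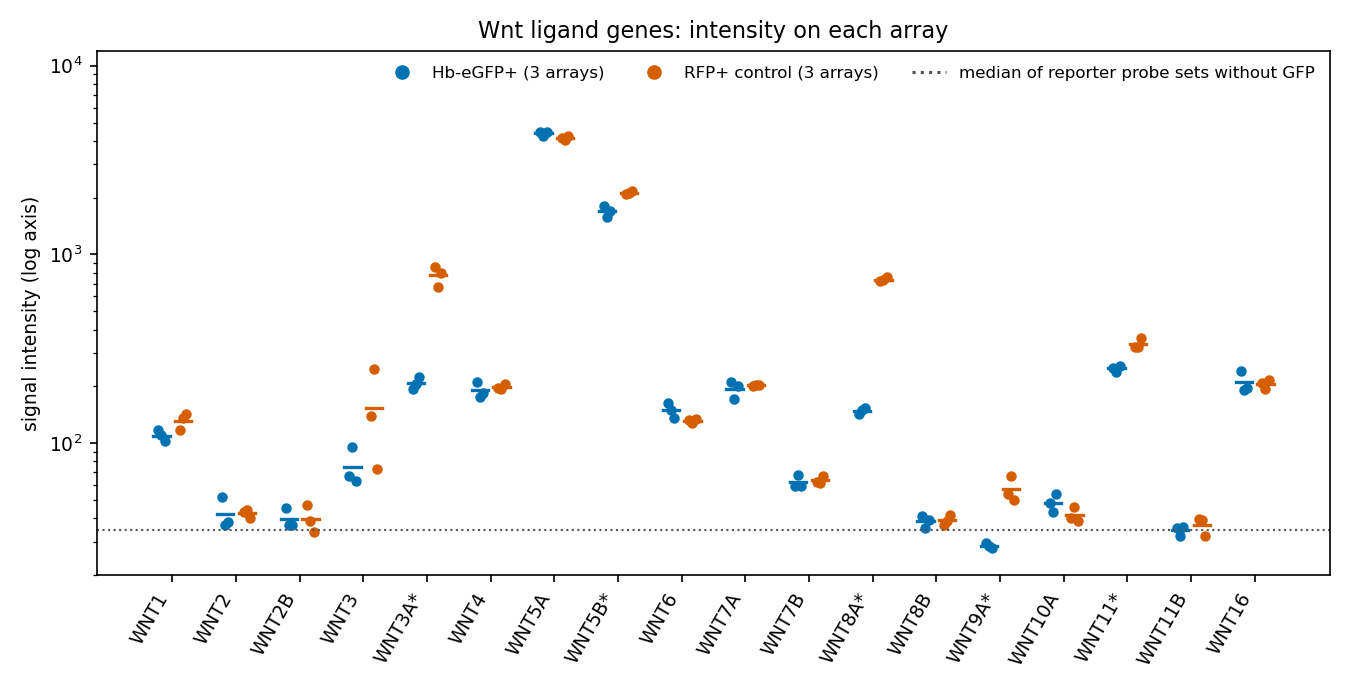
Signal intensity (log axis) of the 18 ligand genes on each array, with Hb-eGFP+ arrays on the left and RFP+ control arrays on the right of each gene, short lines for the group means and an asterisk for genes called by limma. WNT8A at 142 to 154 in Hb-eGFP+ cells and 723 to 756 in RFP+ control cells shows the widest gap; levels are read within a gene, since each probe set has its own sensitivity.

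Among the receptors, 6 of 10 Frizzled genes were lower in Hb-eGFP+ cells, 1 was higher and 3 were not called. These are 60% lower and 10% higher, beside 10.7% and 9.19% of all genes. Frizzled proteins are usually grouped by sequence into FZD5 with FZD8, FZD1 with FZD2 and FZD7, FZD4 with FZD9 and FZD10, and FZD3 with FZD6. By the brightest probe sets, the changes were largest in the first of these groups and smaller in the second. They were of both signs in the third, and positive without a call in the fourth. This order depends on the probe sets read. With the mean over probe sets FZD5 was at -0.62 and FZD7, of the second group, at -1.26.

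FZD8, a receptor of the anterior neuroectoderm, had 43.3, 65.7 and 57.4 in Hb-eGFP+ cells and 895, 895 and 908 in RFP+ control cells. By the brightest probe sets this was the largest change of all 41 genes, with a log2 fold change of -4.04 (SE 0.14, limma adjusted p = 2.8e-06). FZD5, which acts in the eye field of the frog embryo, had 85.8, 80.7 and 66.0 in Hb-eGFP+ cells and 357, 430 and 291 in RFP+ control cells, a log2 fold change of -2.20 (SE 0.16, limma adjusted p = 7.3e-05). For both genes the Hb-eGFP+ signal was within the reporter range, and the true folds may differ. Both calls rest on the brightest probe set alone. The second FZD8 probe set read 80.4 ± 10.5 in Hb-eGFP+ cells and 83.8 ± 6.01 in RFP+ control cells (SD, n = 3 each), and the 2 others of FZD5 averaged 59.3 and 24.9 in Hb-eGFP+ cells and 55.4 and 20.9 in RFP+ control cells. These further probe sets were dim in both populations. In Hb-eGFP+ cells the FZD8 probe set read here was the dimmer one, with a mean of 55.5, so it was brightest only through the RFP+ control arrays. With the mean over probe sets the log2 fold change was -2.05 for FZD8 and -0.62 for FZD5. FZD8 then no longer had the largest change, since WNT8A, read by 1 probe set, was at -2.31. WNT8A and FZD8 are also among the genes that the study selected on these same arrays, so their direction is not independent evidence.

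FZD7, which the frog embryo uses for mesoderm formation and gastrulation movements, was lower by all 3 of its probe sets. By the brightest it had 1853, 1523 and 1829 in Hb-eGFP+ cells and 4084, 3568 and 4694 in RFP+ control cells (log2 fold change -1.24, SE 0.12, limma adjusted p = 0.00037), and by the others it changed by -1.48 and -1.05. By its brightest probe set FZD7 stayed well above background in Hb-eGFP+ cells. The probe set that changed by -1.05 had a Hb-eGFP+ mean of 79.9, within the reporter range. Its close relatives FZD1 and FZD2 were lower by less. FZD1 had 2304, 2211 and 2471 in Hb-eGFP+ cells and 3067, 3100 and 2839 in RFP+ control cells (-0.37, SE 0.07, limma adjusted p = 0.013), whereas its dimmer probe set was not called (-0.08) and the mean over both was -0.22. FZD2 had 699, 628 and 573 in Hb-eGFP+ cells and 816, 838 and 829 in RFP+ control cells (-0.39, SE 0.09, limma adjusted p = 0.017). The call of FZD2 was lost without Hb-eGFP+ replicate 3 or RFP+ control replicate 2, where its adjusted p was 0.060 and 0.053.

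FZD9 was the gene that was higher in Hb-eGFP+ cells, at 300.4, 224 and 247 in these cells and 109, 120 and 146 in RFP+ control cells. Its log2 fold change was 1.04 (SE 0.14, limma adjusted p = 0.0020), read by 1 probe set, and the call held under each of the 13 alternatives tried. Among these, the mean over probe sets repeats the same FZD9 values and is no separate check. FZD4, which is known for its role in the vessels of the retina in the mouse, was lower. It had 146, 145 and 145 in Hb-eGFP+ cells and 172, 209 and 204 in RFP+ control cells (-0.42, SE 0.09, limma adjusted p = 0.015), and its second probe set was lower by more (-0.71). The FZD4 call over genes was lost without Hb-eGFP+ replicate 3 (adjusted p = 0.055). FZD10 had 86.5, 124 and 105 in Hb-eGFP+ cells and 143, 171 and 112 in RFP+ control cells, overlapping ranges with a log2 fold change of -0.43 that was not called (limma adjusted p = 0.15).

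FZD3 and FZD6, receptors of the planar polarity branch, had higher means in Hb-eGFP+ cells without passing the test. FZD3 had 366, 308 and 294 in Hb-eGFP+ cells and 266, 275 and 210 in RFP+ control cells (0.37, 95% interval 0.07 to 0.67, limma adjusted p = 0.085). FZD6 had 701, 635 and 654 in Hb-eGFP+ cells and 597, 576 and 488 in RFP+ control cells (0.26, 95% interval 0.05 to 0.48, limma adjusted p = 0.092). After quantile normalization both passed, with limma adjusted p of 0.035 for FZD3 and 0.046 for FZD6, and FZD3 also passed with an intensity trend and robust variances (0.049). The 3 other probe sets of FZD3 had log2 fold changes of 0.04, 0.06 and 0.09, and with the mean over probe sets FZD3 was at 0.14 (adjusted p = 0.18). The coreceptor genes LRP5 and LRP6 were not called. LRP6 had 72.4, 78.2 and 79.3 in Hb-eGFP+ cells and 156, 71.1 and 87.2 in RFP+ control cells, where the first array alone stood apart (-0.37, 95% interval -0.97 to 0.23, limma adjusted p = 0.36). The LRP6 mean in Hb-eGFP+ cells, 76.6, was within the reporter range. LRP5 ranged from 143 to 178 in Hb-eGFP+ cells and from 174 to 203 in RFP+ control cells (overlapping ranges, -0.28, limma adjusted p = 0.11) and passed without Hb-eGFP+ replicate 2 (adjusted p = 0.034).

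**Figure D3:**
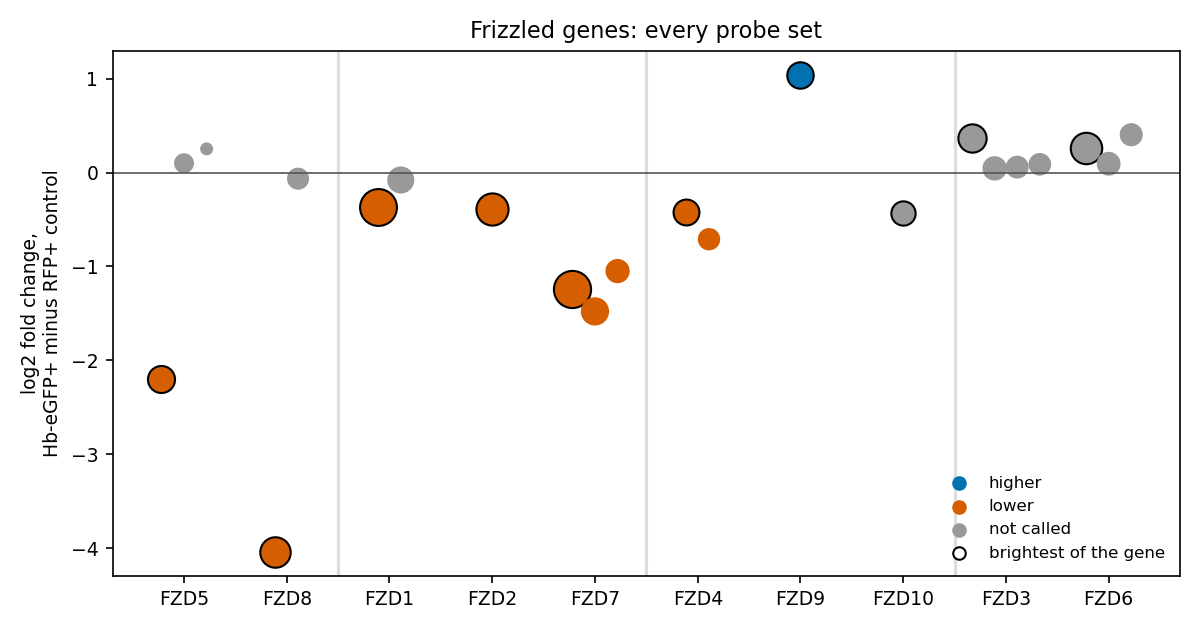
Log2 fold change (Hb-eGFP+ minus RFP+ control, y axis) of every probe set of the 10 Frizzled genes, in their 4 sequence groups divided by vertical lines; a larger circle is a brighter probe set and a black outline marks the brightest of a gene. The 3 probe sets of FZD7 lie between -1.48 and -1.05, whereas the further probe sets of FZD5 and FZD8 lie near 0.

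Of the 5 cytoplasmic components, 1 was lower (20%, beside 10.7% of all genes, with too few genes for the share to be read) and 4 were not called. CTNNB1, which encodes beta-catenin, had 9144, 9134 and 9186 in Hb-eGFP+ cells and 9984, 10012 and 9776 in RFP+ control cells. The populations did not overlap and the arrays of each lay within a narrow range, but the log2 fold change was -0.12 (95% interval -0.26 to 0.02, limma adjusted p = 0.22). With an intensity trend and robust variances in the model the same difference passed (adjusted p = 0.034). APC, the scaffold of the destruction complex that is lost in colon cancer, had 217, 183 and 183 in Hb-eGFP+ cells and 213, 169 and 187 in RFP+ control cells (0.04, 95% interval -0.22 to 0.29), and none of its 4 probe sets was called. AXIN1, the other scaffold of the complex, had 1069, 1281 and 1147 in Hb-eGFP+ cells and 1420, 1430 and 1480 in RFP+ control cells (-0.31, SE 0.08, limma adjusted p = 0.035). This call was lost in 8 of the 13 alternatives, among them those that left out Hb-eGFP+ replicate 1 or 3 or any RFP+ control array (adjusted p 0.080 to 0.11), and in the fit over all probe sets none of its 6 was called. The Dishevelled genes DVL1 and DVL2, which relay the signal from the receptor, had log2 fold changes of -0.25 and 0.07 and were not called, although DVL1 passed without RFP+ control replicate 3 (adjusted p = 0.048). DVL2 had means of 96.7 in Hb-eGFP+ cells and 92.4 in RFP+ control cells, within the reporter range, where a small difference may go undetected.

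AXIN2, a feedback inhibitor that is widely used as a readout of beta-catenin signalling, was moderately lower. It had 2237, 2062 and 2278 in Hb-eGFP+ cells and 2848, 2747 and 2516 in RFP+ control cells (-0.30, SE 0.08, limma adjusted p = 0.033), and its second probe set read 929 ± 90.8 in Hb-eGFP+ cells and 1264 ± 57.4 in RFP+ control cells (SD, n = 3 each; -0.45, adjusted p = 0.031 over all probe sets from limma). In that fit over all probe sets the brightest AXIN2 probe set did not pass (limma adjusted p = 0.078). AXIN2 no longer passed over genes when any Hb-eGFP+ array or RFP+ control replicate 1 or 2 was left out (adjusted p 0.073 to 0.11). NKD1, an inhibitor of Dishevelled, was in the reporter range on all arrays and was not called (log2 fold change 0.08), its Hb-eGFP+ values of 80.7, 65.7 and 86.2 spanning those of the RFP+ control cells.

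Of the 4 nuclear factors, SP8 and TCF7L1 were lower and LEF1 and TCF7L2 were not called. The lower ones are 50%, beside 10.7% of all genes, with too few genes for the share to be read. SP8, a zinc finger factor that is known to act with Wnt signals in limb outgrowth, had 33.6, 38.1 and 42.5 in Hb-eGFP+ cells and 114, 130 and 113 in RFP+ control cells. The log2 fold change was -1.65 (SE 0.10, limma adjusted p = 4.2e-05), and with a Hb-eGFP+ signal near the reporter median its size is not exact (-0.94 with an offset of 50). TCF7L1, which acts mainly as a repressor of Wnt target genes, had 108, 91.4 and 96.7 in Hb-eGFP+ cells and 142, 127 and 141 in RFP+ control cells (-0.47, SE 0.09, limma adjusted p = 0.0086). The TCF7L1 mean in Hb-eGFP+ cells, 98.7, was within the reporter range, so the size of this fold is not exact either. LEF1, an activator at Wnt target genes, had 133, 126 and 126 in Hb-eGFP+ cells and 128, 131 and 139 in RFP+ control cells, overlapping values with a log2 fold change of -0.04 (95% interval -0.20 to 0.11). Its other probe sets had means within the reporter range in both populations and were not called, with log2 fold changes of 0.30 and 0.03. TCF7L2 had 188, 170 and 169 in Hb-eGFP+ cells and 181, 167 and 135 in RFP+ control cells (0.13, 95% interval -0.14 to 0.41), and none of its 5 probe sets was called.

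**Figure D4:**
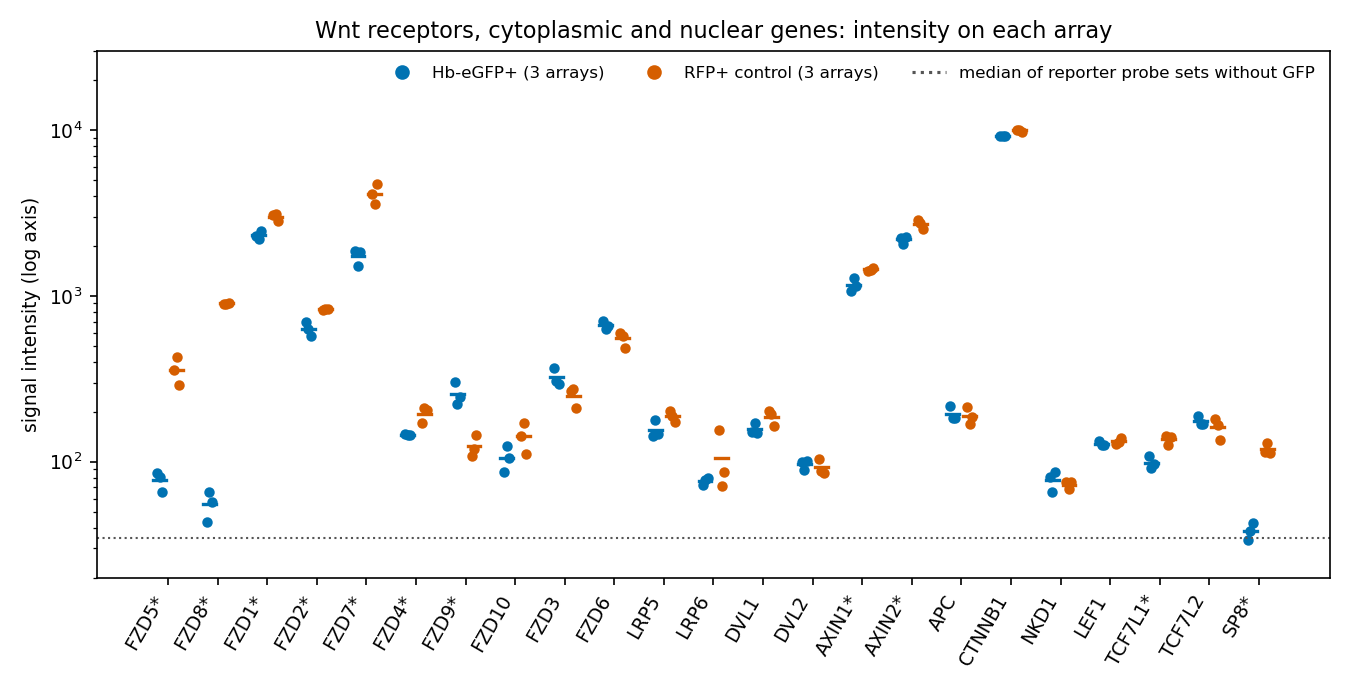
Signal intensity (log axis) of the receptor, cytoplasmic, feedback and nuclear genes on each array, with Hb-eGFP+ arrays on the left and RFP+ control arrays on the right of each gene, short lines for the group means and an asterisk for genes called by limma. FZD8 lies near the dotted reporter level in Hb-eGFP+ cells and at 895 to 908 in RFP+ control cells, and CTNNB1 differs little; levels are read within a gene.

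The study's methods asked that the lower 90% bound of a fold change exceed 1.7, and such a bound was computed here from the spread between arrays. The measurement errors that dChip adds are not in the deposited values, so this bound is not the study's own. By this measure FZD8 (13.6), WNT8A (4.74), FZD5 (3.66), WNT3A (3.24), SP8 (2.74) and FZD7 (2.0) were lower in Hb-eGFP+ cells, as bounds of the ratio of RFP+ control to Hb-eGFP+ cells, and no member was higher. These 6 genes are 14.6% of the members, beside 2.15% of all genes past the bound in that direction, and the share of all genes past it in the other direction was 1.28%. WNT9A, with a bound of 1.69, and FZD9, with a bound of 1.68 in the other direction, lay just under it. Without Hb-eGFP+ replicate 2 or RFP+ control replicate 3 there was 1 member higher by the bound. Over single probe sets, 17 of the 86 were lower and 1 was higher by limma, or 19.8% and 1.16%, beside 5.05% and 4.02% of all probe sets. Of the 22 members with several probe sets, 3 were lower by all of them (FZD4, FZD7 and WNT3A), 5 by some (AXIN2, FZD1, FZD5, FZD8 and WNT11) and 14 by none. No matching shares over all genes with several probe sets are given, so these counts are a description only.

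Other genes of the pathway, from a list of secretion, receptor, scaffold and cofactor genes, were also more often lower than higher. Of 56 measured, 13 were lower and 4 were higher, or 23.2% and 7.14%, beside 10.7% and 9.19% of all genes, with a median log2 fold change of -0.12. The share of higher genes was near that of all genes and is not read as a difference. The lower ones were led by DACT2 and DACT1, regulators that bind Dishevelled (-1.38, or -0.91 with the mean over probe sets, and -0.73), by RSPO3, a secreted enhancer of Wnt signals (-0.92), and by the glypican gene GPC3 (-1.32, its Hb-eGFP+ mean of 74.9 within the reporter range). DACT2 averaged 619 ± 45.3 in Hb-eGFP+ cells and 1612 ± 99.6 in RFP+ control cells (SD, n = 3 each), and RSPO3 1090 ± 60.6 in Hb-eGFP+ cells and 2070 ± 111 in RFP+ control cells. The higher ones were AMER2, whose protein binds APC (0.60, limma adjusted p = 0.00038), the tankyrase gene TNKS2, whose product marks AXIN for degradation (0.33), INVS, which encodes a regulator of Dishevelled (0.41), and CTNND1, the gene of p120 catenin (0.24). The CTNND1 call was lost without any 1 of the arrays (limma adjusted p 0.060 to 0.14), after quantile normalization (0.052) and with the mean over probe sets (0.09, adjusted p = 0.54). The INVS call was lost without Hb-eGFP+ replicate 1 or 3 or RFP+ control replicate 1 or 3 (0.085 to 0.11). There were 8 lower genes without Hb-eGFP+ replicate 3 or RFP+ control replicate 2, where 7.06% and 8.42% of all genes were lower. There were 2 higher ones without Hb-eGFP+ replicate 1, Hb-eGFP+ replicate 3, RFP+ control replicate 1 or RFP+ control replicate 3. In those fits 5.69% to 7.19% of all genes were higher. WLS, which carries Wnt proteins to the cell surface, averaged 8632 ± 434 in Hb-eGFP+ cells and 9065 ± 594 in RFP+ control cells (SD, n = 3 each) and was not called.

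Of 17 secreted antagonists of the pathway, 6 were lower and none was higher, a share of 35.3% lower beside 10.7% of all genes, of which 9.19% were higher. Those with the smallest adjusted p were the gene that the array annotation names DKK4 (-3.60), LOC395991 or Crescent (-4.33), SFRP1 (-1.76, or -0.72 with the mean over probe sets) and CER1 (-1.40). The first 2 are in the study's own selection from these arrays, where the same gene ID as DKK4 is named DKK1. SFRP2 passed as higher (adjusted p under 0.05) with an intensity trend and robust variances.

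Among genes listed as targets of Wnt signals, 15 of 27 were lower and 4 were higher, or 55.6% and 14.8%, beside 10.7% and 9.19% of all genes. Their median log2 fold change was -0.52. The list was not sorted by whether Wnt signals raise or lower a gene, nor by tissue, so these shares give no direction of Wnt response. SIX3, among the lower ones (-0.98), is also in the neuroectoderm list. Of these targets 9, among them 7 of the lower ones, are also in the marker lists, and RSPO3, ZNRF3 and LGR5 are also in the list of other pathway genes. Of the 18 targets in no marker list, 8 were lower (44.4%) and 4 were higher. MSGN1 and DLL1 of the paraxial mesoderm (-3.87 and -2.39), CYP26A1, which degrades retinoic acid (-3.45), and the proliferation gene MYCN (-1.79) had the smallest adjusted p of the lower ones. MSGN1 and DLL1 are in the study's own selection from these arrays. JUN, at 2341 ± 81.5 in Hb-eGFP+ cells and 1279 ± 87.1 in RFP+ control cells (SD, n = 3 each), had the largest increase (0.87), followed by the cyclin gene CCND2 (0.47), ASCL2 (0.44) and MYC (0.23). The CCND2 call was lost with the mean over probe sets (0.22, adjusted p = 0.15), that of ASCL2 without any 1 of the Hb-eGFP+ arrays (adjusted p 0.085 to 0.11; 0.29 in log2 with an offset of 50), and that of MYC without any 1 of the 6 arrays (adjusted p 0.080 to 0.14), after quantile normalization (0.053) and after median centring (0.051). The 8 targets not called were NOTUM (-0.21, limma adjusted p = 0.061), EVX1 (-0.36, limma adjusted p = 0.085) and CDX2, CDX4, ID2, ZNRF3, LGR5 and TBX6, with log2 fold changes between 0.01 and 0.11.

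The 7 paraxial mesoderm markers had a summed intensity of 1188 to 1377 in Hb-eGFP+ cells and 8716 to 9232 in RFP+ control cells, with 5 lower. For 7 neuroectoderm markers, all lower, the sums were 1376 to 1536 in Hb-eGFP+ cells and 10091 to 10213 in RFP+ control cells, and for 5 primitive streak markers, of which 3 were lower, 5592 to 5839 in Hb-eGFP+ cells and 8340 to 8904 in RFP+ control cells. The endoderm markers (4 of 6 lower) summed to 9141 to 10108 in Hb-eGFP+ cells and 17638 to 19374 in RFP+ control cells, the non-neural ectoderm markers (3 of 4 lower) to 946 to 1039.7 in Hb-eGFP+ cells and 3393 to 3533 in RFP+ control cells, and those of the organizer (2 of 5 lower) to 958 to 1076 in Hb-eGFP+ cells and 2055 to 2356 in RFP+ control cells. Of all genes, 10.7% were lower. Such sums follow the brightest probe sets of a list and do not give the makeup of a population. TBXT led the streak sums, at 5291 in Hb-eGFP+ cells and 8004 in RFP+ control cells. SOX17 led the endoderm sums, at 5199 in Hb-eGFP+ cells and 10124 in RFP+ control cells. OTX2, MSGN1, FOXC2, DLL1, SOX17 and CDH1 are among the genes that the study selected on these same arrays. Their direction is therefore a description and no check. The lowest deposited value was 1, so that no marker could read 0. Some markers were within the reporter range, such as GATA3 at a mean of 19.5 in Hb-eGFP+ cells and 40.9 in RFP+ control cells, and FOXC1 at 24.9 in Hb-eGFP+ cells. None of the 41 Wnt genes is in a marker list, whereas 9 of the targets are, so that for these the same probe sets stand in both lists. These markers differed between the same populations as the Wnt genes, and their part in the Wnt differences was not tested.

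**Figure D5:**
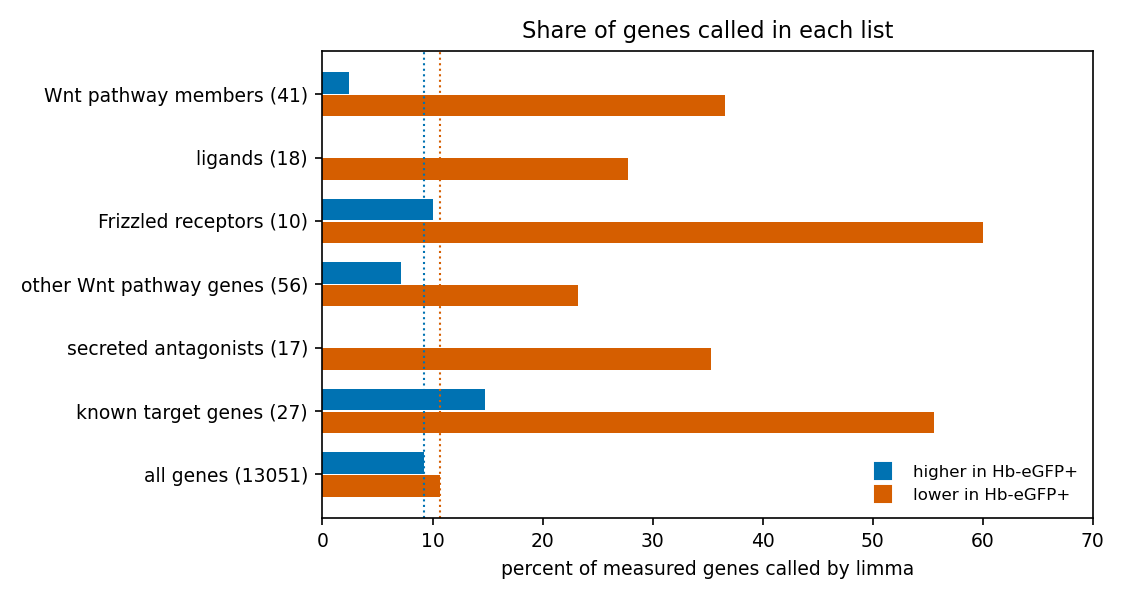
Percent of the measured genes of each list (number in brackets) that limma called higher or lower in Hb-eGFP+ cells, with dotted lines at the shares over all genes. The share of lower genes is 36.6% for the 41 Wnt pathway genes and 10.7% for all genes.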

How the data were processed

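Total RNA (40 ng per sample) had been amplified in 2 cycles and hybridized to Affymetrix Chicken Genome Arrays. The arrays were analyzed with GCOS 1.4 and dChip, and how they were normalized is not stated. The authors deposited 1 linear intensity per probe set, from a model of the Perfect Match probes only.

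Of 38439 probe sets, 27168 have 1 gene in the platform annotation, and 26853 of these matched by gene ID to RefSeq's table for GRCg7b, used for names and neighbours. The 13051 genes are distinct gene IDs. Intensities were log2-transformed with no added normalization (a floor of 1 changed no value) and compared with limma (lmFit and eBayes, two-sided, group as the only term) in R 4.3.3 with limma 3.58.1. The fit was tested on simulated data. The lower bound is a Fieller interval at a nominal 90% level, with a normal quantile and variances from 3 arrays per group. It is therefore narrower than an interval with a t quantile, and the bounds are higher. The exact permutation test of 3 arrays against 3 cannot go below p = 0.1. The labels call the samples biological replicates.

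The members and lists were chosen with earlier results of these data known. Array values are printed for called members brighter than the median of all probe sets and with arrays that do not overlap, and for a fixed set of core genes; from each further list at most 4 genes in each direction with the smallest adjusted p are named. WNT9A, WNT3, WNT8B, WNT1, SFRP2, FZD3, FZD6, FZD10, LRP5, NKD1, WLS and the 8 targets not called were chosen outside this rule after their values were seen. Each array was left out in turn, and the other alternatives tried were the mean over probe sets, a block for the replicate number, robust variances with an intensity trend, an offset of 50, no dim genes, median centring and quantile normalization. Analyses also used Python 3.11.15, pandas 2.3.3 and SciPy 1.17.1.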

Additional observations from a re-analysis of the deposited data

How the results depend on the processing

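Of the 16 called members, 11 kept their call in every alternative that measured them and none changed sign; SP8, WNT9A and 8 members not called have no value once dim genes are left out. AXIN1, AXIN2, WNT5B, FZD2 and FZD4 lost it in at least 1. For FZD9, SP8, TCF7L1, WNT8A and WNT9A, each read by 1 probe set, the mean over probe sets repeats the same values and is no separate check. Of the 25 members not called, 6 passed in at least 1 alternative and 11 changed sign in at least 1, among them LEF1 (0.094) and TCF7L2 (-0.044) with the mean over probe sets. The count of higher members was 3 after quantile normalization and 2 with an intensity trend and robust variances, and 1 without any 1 of the arrays. Of all genes, 10.6% were higher after quantile normalization and 10.8% with the trend and robust variances. Lower members numbered 12 to 16 in the alternatives that kept all arrays and 10 to 15 without 1 array. The shares of all genes tested that were lower ranged from 8.47% to 14.3% with all arrays and from 7.06% to 9.91% without 1. The median log2 fold change of the members was -0.19 after quantile normalization, -0.18 with an offset of 50, -0.12 with the mean over probe sets, and -0.26 to -0.11 without 1 array. By the lower bound, 1 member, FZD9, was higher with no interval, and 0 to 1 were higher and 6 to 7 lower without 1 array.

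The labels do not say that replicate numbers pair the samples, and the deviations of same-numbered arrays from their group means correlated at -0.16, -0.07 and 0.19. With the replicate number as a block, 12 members were lower and 1 was higher, beside 8.47% and 6.87% of all genes. AXIN1, AXIN2 and WNT5B did not pass in that fit (adjusted p 0.064, 0.073 and 0.051), nor did CTNND1, INVS and MYC, and 2 of the other pathway genes were higher. Alternatives for the further lists were chosen after seeing the data: without 1 array the other pathway genes numbered 2 to 3 higher and 8 to 12 lower, the targets 2 to 3 higher, and 1 secreted antagonist was higher with an intensity trend and robust variances. For the 9 members within the reporter range in both populations, signal over background limits what can be seen.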
